A study of Homo sapiens with 21 samples.

Results

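HCT-116 cells that had been given serum extracellular vesicles (EVs) at 0.24 mg/mL were compared with HCT-116 cells that had been given none. HCT-116 is a human colorectal carcinoma line, and EVs are membrane-bound particles that cells shed into body fluids with a cargo of protein, lipid and RNA. The members were chosen by label: 3 libraries with EVs from the serum of people with hepatocellular carcinoma (HCC+, 0.24 mg/mL), 3 libraries with EVs from the serum of healthy people (HCC-, 0.24 mg/mL) and 3 blank libraries (0 mg/mL), 9 of the 21 libraries in the series. Each EV source carried the same weight in the mean of the treated cells. All groups shared the cell line and a medium with exosome-depleted serum. The other 12 libraries held the same sources at 0.048 and 1.2 mg/mL and are used here where they show how 0.24 mg/mL stands among the doses. The labels state neither the time of exposure nor how many people gave serum, and all treated cells are 1 line, so the groups model only how this line responds. Nothing in the labels tells whether replicate libraries are separate cultures. The p-values therefore measure only the spread between these libraries, which may be technical.

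Poly(A) RNA was sequenced, and the 9 libraries held 31.22 to 53.82 M (mega) counts. Of 65065 genes in the table, 19556 had enough counts to be tested, with 99.96% of all counts among them. Levels below are in CPM, the counts of a gene relative to its library's size, with TMM factors, which correct for differences in RNA composition. Differences are on the log2 scale, ± the standard error of edgeR's quasi-likelihood test. The verbs rose and fell, and the word called, are kept for genes with an adjusted p under 0.05 (Benjamini-Hochberg over all tested genes).

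The epithelial identity of the line was present in every library. Of 10 markers of colorectal epithelium, 9 were tested and their summed level was 3780 to 4610 CPM in the blank, 4090 to 4550 CPM with HCC+ EVs and 3900 to 4500 CPM with HCC- EVs. CEACAM5, the marker left out, was at 0 in all 9 libraries. Markers of cells that could have shed serum EVs differed in level between lists. The summed level of 8 red cell genes was 0.0677 to 0.2 CPM in the blank, 0.121 to 0.524 CPM with HCC+ EVs and 0.144 to 0.42 CPM with HCC- EVs, with AHSP at 0 throughout. For 12 hepatocyte genes the sums were 2.34 to 2.72, 2.83 to 3.84 and 3.17 to 4.56 CPM in the same order, so both EV groups lay above the blank in the sum, while APOB, APOC3 and AFP were at 0. Of these 12 genes 8 were not tested, and of the 4 tested 3 were higher with EVs and 1 lower, with 0 called. For 6 endothelial genes they were 0.689 to 1.1, 0.931 to 1.76 and 1.45 to 1.85 CPM. Leukocyte sums overlapped between groups at 1.49 to 3 CPM, with S100A8, S100A9 and FCGR3A at 0, and so did those of 8 platelet genes (23.3 to 31.7 CPM) and 7 fibroblast genes (14.5 to 17.7 CPM). PPBP, PF4 and GP9 of the platelet list and COL1A2, DCN and LUM of the fibroblast list were at 0. The part of such RNA in the results below was not tested, and in bulk RNA a change in some cells and a smaller change in all cells cannot be told apart.

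Cells take up iron mainly as transferrin, which the transferrin receptor TFRC carries in from the cell surface. Ferritin, made of FTH1 and FTL chains, stores iron, and ferroportin, SLC40A1, exports it. When iron is short, iron regulatory proteins, ACO1 and IREB2, bind hairpins in the 3′ untranslated region of the TFRC mRNA and protect it from decay, while similar hairpins at the start of ferritin mRNAs hold back their translation. TFRC levels also follow growth and the cell cycle in tumour lines.

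TFRC was the gene that passed in the fit reported, while alternative fits called 0 to 29 genes. It rose by 1.34-fold in cells given EVs at 0.24 mg/mL (95% interval 1.23 to 1.46), and it was the only one of 19556 tested genes that was called (0.00511% in either direction, 0.00511% for rising genes and 0% for falling genes). TFRC (ENSG00000072274) lies on the reverse strand of chr3:196027183-196082096 on GRCh38. Its level was 411, 313 and 359 CPM in the 3 blank libraries. With HCC+ EVs it was 574, 509 and 505 CPM, and with HCC- EVs it was 437, 427 and 458 CPM. Every EV library thus stood above every blank library, the nearest being the HCC- library at 427 CPM and the blank library at 411 CPM. The log2 difference was 0.42 ± 0.06 (adjusted p = 0.00207). The call was lost in 3 of 17 alternatives: adjusted p was 0.0526 without blank replicate 3, 0.279 when only the 9 libraries entered the fit and 0.361 with the 6 EV libraries as 1 group. The log2 difference was 0.42, 0.42 and 0.43 there.

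The TFRC mRNA carries the hairpins that iron regulatory proteins bind, which is why its sequences are shown. In a TFRC transcript of 5111 bases (GENCODE v29), a search of the 3′ untranslated region of 2658 bases found 4 matches to a motif of C, 5 bases, the loop CAGTGN and 5 bases that pair with the first 5. They lie in the last exon, on the reverse strand of GRCh38, at chr3:196050978-196051007, chr3:196050574-196050603, chr3:196050509-196050538 and chr3:196050462-196050491. Capitals mark the loop, 5′ to 3′ in the mRNA.
Hairpin 1: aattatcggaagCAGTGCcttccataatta
Hairpin 2: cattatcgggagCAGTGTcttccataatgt
Hairpin 3: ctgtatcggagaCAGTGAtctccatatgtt
Hairpin 4: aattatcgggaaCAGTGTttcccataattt
Of 15823 genes with a 3′ untranslated region, 110 (0.695%) held at least 1 match, and only TFRC, with 4, and SLC35E2A, with 3, held 3 or more in the transcripts searched. These matches describe the letters and do not show that a protein bound them here.

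The other iron genes did not pass the test. Of 10 genes on the iron handling list, 9 were tested and TFRC alone was called, with 4 of 9 above 0 and 5 below. The hormone gene HAMP had no count in the 9 libraries. FTH1 was at 510, 709 and 441 CPM in the blank and at 496 to 534 CPM in the 6 EV libraries, a log2 difference of -0.12 ± 0.09. Its blank libraries spanned a wider range than all 6 EV libraries, and FTH1 has near copies in the genome that make its counts uncertain. FTL differed by -0.056 ± 0.048, the iron importer SLC11A2 by 0.099 ± 0.060 and the exporter SLC40A1, at 0.892 to 2.1 CPM over the 9 libraries, by -0.30 ± 0.26. The sensors ACO1 and IREB2 differed by 0.038 ± 0.052 and -0.062 ± 0.061, heme oxygenase HMOX1 by 0.049 ± 0.078 and the iron reductase STEAP3 by -0.0047 ± 0.0645.

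**Figure D1:**
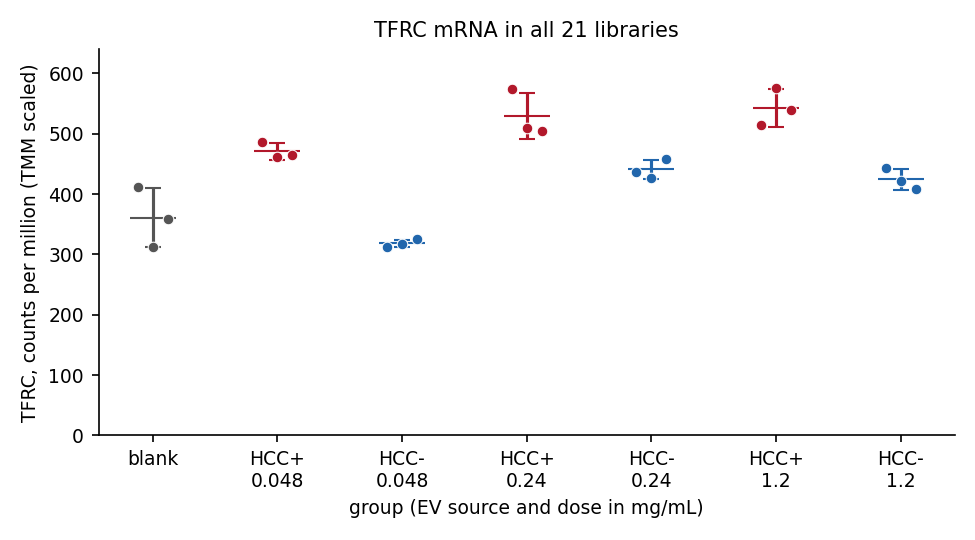
TFRC level in CPM (vertical axis) in each of the 21 libraries, by EV source and dose in mg/mL; points are libraries, bars are the mean ± SD of 3. At 0.24 mg/mL all 6 EV libraries, 427 to 574 CPM, lie above the blank at 313 to 411 CPM. At 0.048 mg/mL the HCC+ libraries also lie above the blank, while the HCC- libraries are at 312 to 325 CPM, at the low end of the blank.

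TFRC stood apart by dose and, in its values, by EV source. Against the blank the log2 difference at 0.24 mg/mL was 0.55 ± 0.07 for HCC+ EVs (adjusted p = 0.000113) and 0.29 ± 0.07 for HCC- EVs (adjusted p = 0.671). TFRC was also called for HCC- EVs without blank replicate 1 (0.39, adjusted p = 0.0429), with GC content and length trends removed (0.32, adjusted p = 0.000296) and with no filter on low counts (0.29, adjusted p = 0.0356). These share the blank libraries, so the sources were also compared directly, and HCC+ exceeded HCC- by 0.27 ± 0.07, which did not pass (adjusted p = 1), though it did with trends removed (0.29, adjusted p = 0.00175). At 0.048 mg/mL TFRC was 486, 461 and 465 CPM with HCC+ EVs and 312, 317 and 325 CPM with HCC- EVs. The HCC+ libraries thus stood above every blank library at this dose too, and the HCC- libraries did not. Averaged over sources, TFRC was higher at 0.24 than at 0.048 mg/mL by 0.32 ± 0.05 (adjusted p = 0.00533), and by 0.241 with trends removed. Without HCC+ 0.24 replicate 1 no gene was called in that comparison, and the smallest adjusted p was 0.0709. In the levels given, this step was larger with HCC- EVs than with HCC+ EVs, and the step was not tested for each source apart. At 1.2 mg/mL TFRC was 514, 576 and 539 CPM with HCC+ EVs and 443, 422 and 409 CPM with HCC- EVs, which differed from 0.24 mg/mL by -0.0079 ± 0.0488 (adjusted p = 0.907).

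In the fit to all 21 libraries, most expressed genes were measured closely enough to bound their response. Among 12206 genes whose level averaged 1 log2 CPM or more in the 9 libraries, the median standard error of the log2 difference was 0.0791. The 95% interval lay within 1.5-fold either way for 11837 of them (97.0%). These intervals rest on a spread estimated over all 21 libraries and were not computed from the 9 libraries alone. Their log2 differences ran from -0.161 to 0.184 between the 5th and the 95th percentile. Over all 19556 tested genes the interval was within 1.5-fold for 12182 (62.3%), so the other tested genes were bounded less closely. An unadjusted p under 0.05 was found for 1262 genes (6.45%), 723 higher (3.7%) and 539 lower (2.76%). The 6 EV libraries lay entirely above the 3 blank libraries for 270 genes (1.38%) and entirely below for 235 (1.2%).

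**Figure D2:**
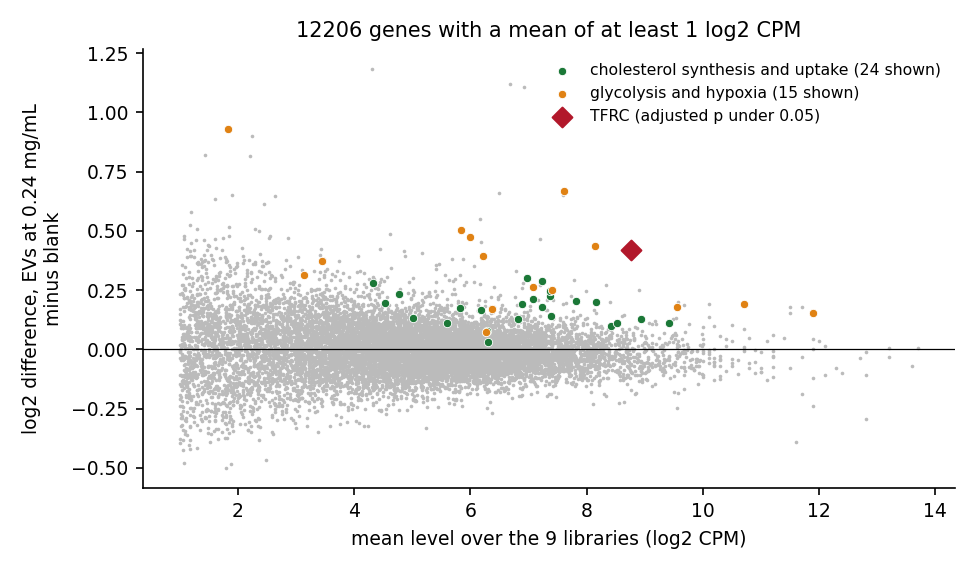
Log2 difference between EVs at 0.24 mg/mL and blank (vertical axis) against the mean level over the 9 libraries (log2 CPM, horizontal axis) for 12206 genes, each a point; green and orange points are members of 2 gene lists and the red diamond is TFRC. TFRC at 0.42 and the 24 cholesterol genes lie above 0, as do the hypoxia genes shown.

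After TFRC, the genes with the smallest p among those at 1 log2 CPM or more were small differences that did not pass in the fit reported. GPRC5A, a G protein-coupled receptor induced by retinoic acid, came closest. It was at 192, 199 and 188 CPM in the blank, 211, 247 and 244 CPM with HCC+ EVs and 220, 255 and 238 CPM with HCC- EVs. No EV library fell within the blank range, and the log2 difference was 0.29 ± 0.06 (adjusted p = 0.118). GPRC5A passed in 8 of 17 alternatives, among them DESeq2 (adjusted p = 0.0125) and removal of trends (adjusted p = 0.00247), and its adjusted p over all of them ran from 0.0022 to 0.689. SCD, the desaturase that makes monounsaturated fatty acids, was at 3100, 2960 and 2880 CPM in the blank and at 3150 to 3540 CPM with EVs, a difference of 0.18 ± 0.04 (adjusted p = 0.383). ALDH1A3, which makes retinoic acid, was at 62.4, 66 and 64.5 CPM in the blank and at 72.2 to 77.4 CPM with EVs (0.21 ± 0.05). The kinase gene AATK was at 1.39, 2.46 and 1.62 CPM in the blank and at 2.95 to 3.46 CPM with EVs (0.82 ± 0.18, adjusted p = 0.257). The rest of the 10 were ARHGAP44 (0.40 ± 0.09), the myosin gene MYH15 (0.38 ± 0.09), ANKRD37 (0.93 ± 0.22), LINC03061 (0.40 ± 0.10) and the glycosyltransferase gene B3GNT4 (0.50 ± 0.13).

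None of the 10 genes named on the lower side passed in the fit reported. MT-RNR2, the large ribosomal RNA of the mitochondrion, was at 8680, 7520 and 8040 CPM in the blank, 6950, 6120 and 6290 CPM with HCC+ EVs and 7620, 5790 and 6850 CPM with HCC- EVs. Its log2 difference was -0.29 ± 0.06 (adjusted p = 0.206), and 1 HCC- library reached into the blank range. By edgeR, MT-RNR2 passed with no filter on low counts (adjusted p = 1.05e-05), with trends removed (0.00575) and without HCC- 0.24 replicate 1 (0.0202). MT-ND1, a subunit of respiratory complex I encoded in the mitochondrion, was at 3710, 3730 and 3410 CPM in the blank and at 2850 to 3340 CPM with EVs (-0.19 ± 0.05, adjusted p = 0.383). RPA3, a subunit of the protein that coats single-stranded DNA, was at 47.8, 42.5 and 41.5 CPM in the blank and at 33.5 to 37.2 CPM with EVs, without overlap (-0.33 ± 0.07, adjusted p = 0.257). RPA3 passed with DESeq2 (adjusted p = 0.0417) and, by edgeR, with trends removed (0.0255) and with no filter on low counts (0.0256). COX7B, a nuclear gene of respiratory complex IV, differed by -0.25 ± 0.06, and the mitochondrial carrier SLC25A13 by -0.25 ± 0.07. CD163L1 (-0.35 ± 0.09), RBM26 (-0.27 ± 0.07), ZNF839 (-0.32 ± 0.09), NFATC3 (-0.25 ± 0.07) and the ribosomal protein gene RPS26 (-0.22 ± 0.06) completed the group. MT-RNR2 and RPS26 have near copies elsewhere in the genome, so their counts are uncertain.

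Genes were also described by lists of known function, 41 in all, by how many members lay above 0 and by their median. Over all tested genes 49.2% lay above 0 and 50.8% below, and the median was -0.0023. No member of 40 lists was called. TFRC was the only call in the iron list. Lists whose members lay on 1 side are given next and among the remaining lists below, with no test of the list.

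Cholesterol is made from acetyl units through the mevalonate pathway, and SREBF2 turns on its enzymes when membrane sterol is low. All 24 genes of cholesterol synthesis and uptake lay above 0, with a median log2 difference of 0.18, 0 were called, and 15 of 24 had an unadjusted p under 0.05 beside 3.7% of all genes. SREBF2 itself differed by 0.11 ± 0.06. Among the early enzymes, HMGCS1 was at 224, 189 and 201 CPM in the blank and at 223 to 259 CPM with EVs (0.21 ± 0.08), so the lowest EV libraries overlapped the blank.

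INSIG1, which holds the SREBP complex back when sterol is plentiful, was at 142, 132 and 122 CPM in the blank, 136, 178 and 166 CPM with HCC+ EVs and 150, 165 and 172 CPM with HCC- EVs (0.29 ± 0.07, adjusted p = 0.383). Its lowest EV library, HCC+ replicate 1, lay in the blank range.

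Of the late enzymes that turn lanosterol into cholesterol, CYP51A1 and EBP had no overlap between EV and blank libraries, which held for 3 of 24 list members beside 1.38% of all genes. CYP51A1 was at 16.2, 19.4 and 17.1 CPM in the blank and at 20.2 to 23.8 CPM with EVs (0.28 ± 0.08, adjusted p = 0.402). EBP was at 24, 26.5 and 23.6 CPM and at 27.3 to 30.9 CPM (0.23 ± 0.07). SC5D was the lowest of the list at 0.033 ± 0.086. Both sources had all 24 members above the blank, with medians of 0.17 for HCC+ and 0.17 for HCC-. Per library the median member stood at -0.0242, 0.0661 and -0.0493 log2 units from the blank mean in the blank, at 0.0949, 0.222 and 0.216 with HCC+ EVs and at 0.112, 0.211 and 0.163 with HCC- EVs. All EV libraries lay above the blank, nearest to it HCC+ replicate 1 and blank replicate 2. Leaving out single libraries left 23 or 24 members above 0 and medians of 0.157 to 0.202.

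Fatty acid synthesis is also driven by SREBP factors, and 8 of 12 tested genes lay above 0, with a median of 0.049, 0 called, and 4 higher and 0 lower at an unadjusted p under 0.05 (3.7% and 2.76% of all genes). Per library the median member stood at -0.00384, -0.0226 and -0.00704 log2 units from the blank mean in the blank, at 0.0488, 0.0866 and 0.0578 with HCC+ EVs and at 0.0361, 0.114 and 0.0591 with HCC- EVs, so all EV libraries lay above the blank. SCD, ACSS2 and FADS1, 3 of the 12 beside 1.38% of all genes, had no overlap with the blank. ACSS2, which makes acetyl-CoA from acetate, was at 56.7, 62.9 and 56.2 CPM in the blank and at 63.3 to 81.3 CPM with EVs (0.28 ± 0.08). FADS1, a desaturase of polyunsaturated fatty acids, was at 136, 132 and 138 CPM and at 144 to 150 CPM (0.11 ± 0.05). FASN, the fatty acid synthase, differed by 0.037 ± 0.082 and ACACA, which supplies its malonyl units, by -0.0019 ± 0.0521.

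When oxygen is short, HIF factors raise glucose uptake, glycolysis and genes such as VEGFA and CA9. All 16 genes of the glycolysis and hypoxia list lay above 0, with a median log2 difference of 0.34 (range 0.073 to 0.93), and 0 were called. An unadjusted p under 0.05 was found for 11 of 16, beside 3.7% of all genes on the higher side. Free of overlap were 0, beside 1.38% of all genes. ANKRD37, a HIF target, was at 1.93, 2.71 and 2.37 CPM in the blank, 2.62, 5.55 and 5.03 CPM with HCC+ EVs and 3.67, 5.65 and 4.37 CPM with HCC- EVs (adjusted p = 0.35). NDRG1, a stress-induced gene of differentiation, was at 119, 196 and 133 CPM in the blank, 138, 343 and 313 CPM with HCC+ EVs and 190, 282 and 167 CPM with HCC- EVs (0.67 ± 0.28). HCC+ replicate 1 stood in the blank range for both genes, as did HCC- replicates 1 and 3 for NDRG1, where HCC+ replicates 2 and 3 stood highest.

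A like division between libraries was seen in other members of the hypoxia list. Adrenomedullin, ADM, was at 40.4, 53.7 and 44.6 CPM in the blank, 40.8, 80.6 and 80.4 CPM with HCC+ EVs and 58, 78.3 and 56.3 CPM with HCC- EVs (0.50 ± 0.19). The glucose transporter SLC2A1 was at 197, 289 and 223 CPM, 214, 390 and 383 CPM, and 314, 352 and 269 CPM in the same order (0.44 ± 0.19). HK1, which starts glycolysis, was at 110, 135 and 113 CPM in the blank and at 126 to 155 CPM with EVs (0.26 ± 0.07), LDHA differed by 0.19 ± 0.07 and PGK1 by 0.18 ± 0.08. Taken per library, the median member of the list stood at -0.225, 0.202 and -0.0812 log2 units from the mean of the blank in blank replicates 1, 2 and 3. With EVs it stood at -0.0484, 0.557 and 0.536 for HCC+ and at 0.222, 0.51 and 0.164 for HCC-, so HCC+ replicate 1 and HCC- replicate 3 lay below blank replicate 2. The median over members was 0.515 without blank replicate 2 and 0.266 without blank replicate 1, and 16 of 16 remained above 0 each time. With each library's trend with GC content and gene length removed, the median was 0.331.

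ANKRD37 is the member of the hypoxia list that the ranking by p also named, so a stretch upstream of its start is shown. The core letters that HIF factors bind are ACGTG, searched on both strands. RefSeq promoters, 250 bases before to 50 after the start on GRCh38.p14, were found for 14 of the 16 members, and 7 held the core on either strand, beside 21.6% of all 27305 promoters. The ANKRD37 promoter held 3 matches, of which a pair overlap in 1 palindrome. The stretch of 60 bases on the forward strand at chr4:185396661-185396720 reads, with matches in capitals:
ANKRD37: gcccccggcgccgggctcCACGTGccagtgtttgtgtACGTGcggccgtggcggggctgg

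**Figure D3:**
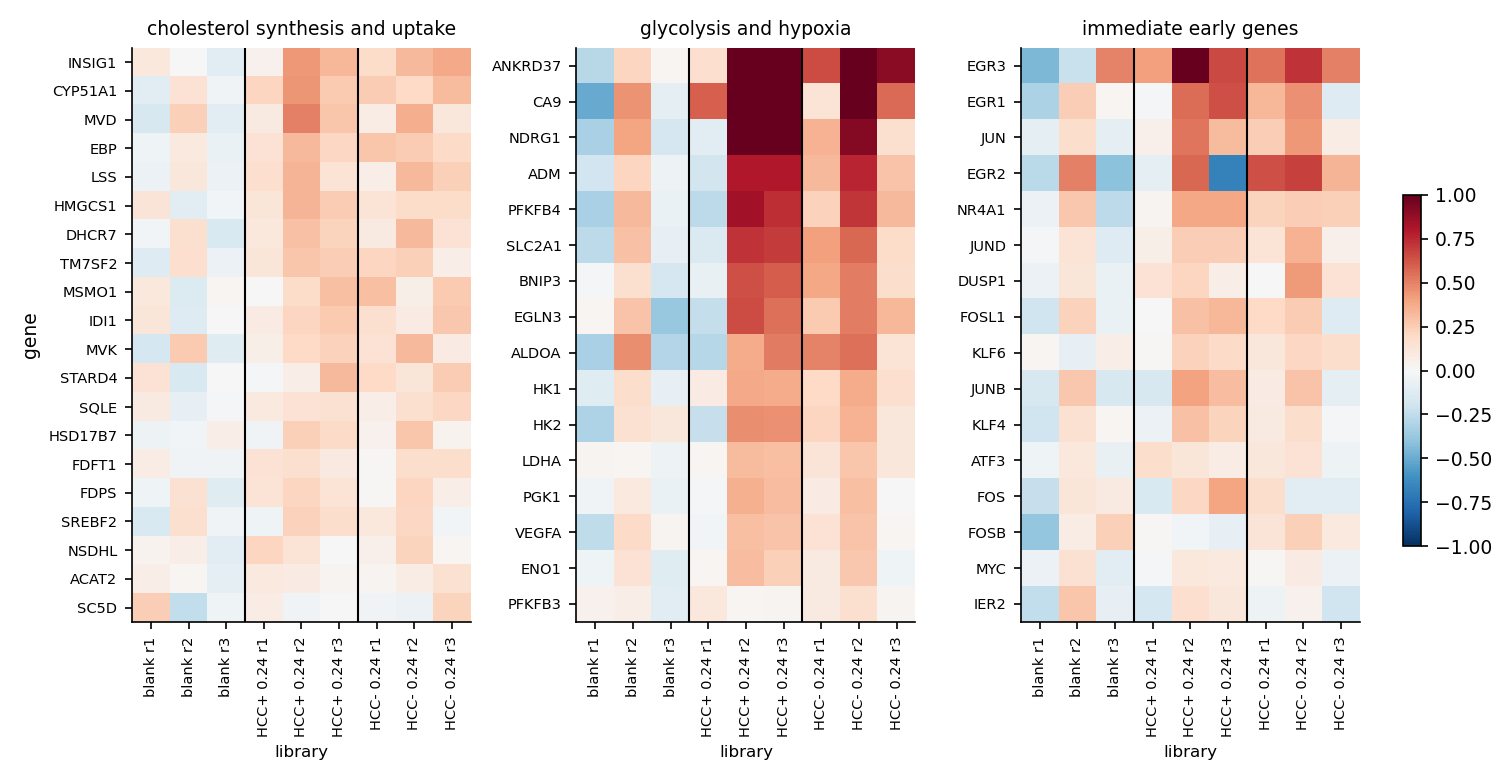
Each row is a gene of 3 lists (20 of the 24 cholesterol genes are drawn) and each column 1 of the 9 libraries; colour is log2 of the CPM over the mean of the 3 blank libraries, with colours ending at -1 and 1, and genes are ordered by their log2 difference. Cholesterol genes are higher with EVs by small amounts, least in replicate 1 of each source, while in the hypoxia list HCC+ replicates 2 and 3 and HCC- replicate 2 are high, and HCC+ replicate 1 stands with the blank.

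Immediate early genes, which answer growth signals within minutes, and the feedback genes of the ERK pathway lay mostly above 0. Of 16 immediate early genes 15 did, with a median of 0.16, 0 called and 5 at an unadjusted p under 0.05, beside 3.7% of all genes on the higher side. EGR3 was at 1.66, 1.94 and 3.19 CPM in the blank and at 3.01 to 4.55 CPM with EVs (0.64 ± 0.18, adjusted p = 0.402). JUN was at 18, 21.8 and 18.1 CPM and at 20 to 27.9 CPM (0.28 ± 0.10), EGR1 differed by 0.33 ± 0.18, and FOS by 0.071 ± 0.144. Of 10 ERK feedback genes 8 lay above 0, with a median of 0.10. DUSP6, the phosphatase that switches ERK off, was at 149, 142 and 150 CPM in the blank and at 152 to 176 CPM with EVs, without overlap (0.17 ± 0.06). This held for 1 of the 10, beside 1.38% of all genes. Per library the median immediate early gene stood at -0.179, 0.153 and -0.0697 in the blank replicates, at 0.00625, 0.271 and 0.235 with HCC+ EVs and at 0.134, 0.249 and 0.0127 with HCC- EVs. Without blank replicate 1, 13 of 16 lay above 0 and the median was 0.111, and without blank replicate 2 it was 0.252.

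Genes of growth and respiration lay mostly below 0 by small amounts. Of 22 nuclear genes of oxidative phosphorylation 20 lay below, with a median of -0.055 and 0 called. NDUFA4 was at 110, 111 and 106 CPM in the blank and at 88.3 to 104 CPM with EVs (-0.18 ± 0.06), and COX6C at 128, 119 and 116 CPM and at 105 to 116 CPM (-0.14 ± 0.06). Of 13 mRNAs encoded in the mitochondrion 8 lay below and 5 above (median -0.099). MT-ND2 differed by -0.24 ± 0.12 and MT-CO1 by 0.0071 ± 0.0488. Of 29 cytosolic ribosomal protein genes 23 lay below (median -0.065), and of 19 ribosome biogenesis genes 15 (median -0.049). Per library the median ribosomal protein gene stood at -0.00321, 0.135 and -0.0947 log2 units from the blank mean in the blank. With EVs it stood at -0.124 to -0.0208, so the groups overlapped. Oxidative phosphorylation overlapped as well, at -0.0594 to 0.0385 in the blank and -0.0944 to -0.0135 with EVs. For ribosome biogenesis the ranges were -0.0144 to 0.00225 and -0.111 to -0.00525. Without overlap below the blank lay 3 of 22 oxidative phosphorylation, 2 of 19 ribosome biogenesis, 2 of 29 ribosomal protein and 1 of 13 mitochondrial genes, beside 1.2% of all genes. Lower at an unadjusted p under 0.05 by edgeR were 2, 4, 2 and 2 in the same order, beside 2.76% of all genes. Nucleolin, NCL, was at 2600, 2460 and 2530 CPM in the blank and at 2180 to 2430 CPM with EVs (-0.12 ± 0.05), and NPM1 differed by -0.13 ± 0.06.

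Cell cycle genes, too, lay mostly below 0 by small amounts. Of 25 DNA replication genes 20 lay below 0, with a median of -0.034, and of 22 mitosis genes 18 (median -0.066), with 0 called in either. In each list 2 genes lay below the blank without overlap, beside 1.2% of all genes. Per library the median mitosis gene stood at -0.0841 to 0.0466 log2 units from the blank mean in the blank and at -0.0875 to -0.0173 with EVs, with overlap. The helicase subunits MCM2 and MCM3 differed by 0.048 ± 0.064 and -0.012 ± 0.046, and the mitotic cyclins CCNB1 and CCNB2 by 0.0074 ± 0.0643 and -0.073 ± 0.064. The proliferation marker MKI67 was at 909, 914 and 939 CPM in the blank and at 824 to 901 CPM with EVs (-0.078 ± 0.052). Of 20 p53 targets 9 lay above 0 and 11 below (median -0.0088), with 0 called.

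Genes that handle vesicles at the membrane, and defence genes, were spread on both sides. Of 22 genes of endosomes, the ESCRT machinery and tetraspanins 12 lay above 0 (median 0.0070). The tetraspanins CD9 and CD63, which serve as EV markers, differed by 0.023 ± 0.056 and 0.025 ± 0.049. Of 16 lysosome and autophagy genes 9 lay above 0 (median 0.033), with LAMP1 at -0.11 ± 0.05 and LAMP2 at -0.073 ± 0.063. Of 22 interferon response genes 11 lay above and 11 below (median -0.0039), with IFIT1 at 0.061 ± 0.146. Of 14 tested NF-kB targets and chemokines 11 lay above 0, with a median of 0.070. Of 22 genes that answer amino acid shortage 10 lay above 0 and 12 below (median -0.021).

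The remaining lists also held 0 called genes. The CYP4F cluster of fatty acid hydroxylases had 5 of 5 tested genes above 0 (median 0.40). Of these, 3 had an unadjusted p under 0.05 by edgeR, beside 3.7% of all genes, and 0 were free of overlap. Among the marker lists, 5 of 5 tested endothelial genes (median 0.87) and 2 of 2 tested red cell genes lay above 0, at the low levels given above. Of 4 tested platelet genes 3 lay below. Of 4 tested hepatocyte genes 3 lay above 0 and 1 below, at -0.639, and of 5 tested leukocyte genes 4 lay above and 1 below, at -1.07. Replication histones had 10 of 12 tested genes above 0 (median 0.17), integrins and matrix genes 9 of 12 (median 0.10), glucocorticoid targets 5 of 8 (median 0.11), long nuclear RNAs 3 of 4 (median 0.19) and targets of LXR, the sensor of oxidised sterols, 5 of 8 (median 0.068). Wnt targets had 7 of 9 above 0 (median 0.057), targets of TGF-beta and BMP 6 of 9 (median 0.021), targets of YAP and TEAD 6 of 9 (median 0.022) and genes of fatty acid oxidation 6 of 11 (median 0.0016). On the lower side, cytosolic heat shock genes had 9 of 12 below 0 (median -0.038), NRF2 targets 8 of 12 (median -0.035), metallothioneins and zinc response genes 3 of 5 (median -0.20) and AhR targets 3 of 5 (median -0.078). Genes of the unfolded protein response had 8 of 14 above 0 (median 0.021), and osmolyte transport genes 3 of 8 (median -0.023).

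The 2 EV sources were then set against each other at 0.24 mg/mL, which the pooled comparison passes over. No gene was called between HCC+ and HCC- EVs (0% in either direction, 0% higher and 0% lower), the smallest adjusted p was 1 by edgeR and 462 genes had an unadjusted p under 0.05, and DESeq2 gave 0 calls as well. Against the blank, HCC+ EVs gave 1 call (0.00511%, 0.00511% higher and 0% lower), which was TFRC. HCC- EVs gave 0 calls (0%, 0% and 0%), with 905 genes at an unadjusted p under 0.05 and 0 calls by DESeq2. For the hypoxia list the medians against the blank were 0.33 for HCC+ and 0.37 for HCC-, for immediate early genes 0.16 and 0.16, and for the CYP4F cluster of fatty acid hydroxylases, 5 genes, 0.61 and 0.19. These pairs share the blank libraries and do not stand as separate evidence.

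By the count of called genes, 0.24 mg/mL stood closer to 0.048 mg/mL than to 1.2 mg/mL. An unadjusted p under 0.05 by edgeR was found for 2683 genes (13.7%) between 0.24 and 0.048 mg/mL. That share was 6.45% between 0.24 mg/mL and the blank, which has fewer libraries, and 58.4% between 1.2 and 0.24 mg/mL. With GC content and length trends removed, 1527 genes had such a p between 0.24 and 0.048 mg/mL. Between 0.24 mg/mL and the blank 1642 genes then had it, so the order of these shares turned. In HCC- libraries the slope on GC content was 0.109 to 0.131 at 0.048 mg/mL and -0.127 to 0.0325 at 0.24 mg/mL. Its part in these counts was not tested further. Between 0.24 and 0.048 mg/mL, 2 genes were called (0.0102% in either direction and 0.0102% higher, 0% lower), which were TFRC and CDK2AP1, a growth suppressor that binds CDK2. CDK2AP1 was named after its values were seen. It was at 192, 173 and 176 CPM with HCC+ EVs and 183, 192 and 195 CPM with HCC- EVs at 0.24 mg/mL. At 0.048 mg/mL it was at 178, 187 and 179 CPM and at 125, 128 and 138 CPM (0.27 ± 0.05, adjusted p = 0.0454), so the low values were those of HCC- at the lower dose. The count depended on the fit, with 490 calls when only the 12 libraries compared entered.

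Between 1.2 and 0.24 mg/mL, 10548 genes were called (53.9%), of which 5064 were higher at 1.2 mg/mL (25.9%) and 5484 lower (28%). Of these, 1673 differed by at least 1 on the log2 scale. With scaling to the total count alone the split was 7912 higher and 3228 lower. PCK2, which makes phosphoenolpyruvate in mitochondria, was at 107 ± 4.54 CPM (SD, n = 3) with HCC+ EVs and 103 ± 15.4 CPM with HCC- EVs at 0.24 mg/mL, and at 23.9 ± 1.49 and 23.6 ± 1.69 CPM at 1.2 mg/mL (-2.14 ± 0.06, adjusted p = 1.13e-21). AQP3, a channel for water and glycerol, was at 12 ± 1.72 and 13 ± 1.21 CPM at 0.24 mg/mL and at 50.9 ± 13.5 and 98.1 ± 26.2 CPM at 1.2 mg/mL (2.50 ± 0.15, adjusted p = 2.18e-10). Against the blank at 0.24 mg/mL these differed by -0.047 ± 0.075 and -0.017 ± 0.195. EGR1 was at 128 ± 29.4 and 113 ± 22.7 CPM at 0.24 mg/mL and fell to 37.7 ± 7.09 and 21.2 ± 1.44 CPM at 1.2 mg/mL (-2.09 ± 0.15, adjusted p = 8.79e-09).

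Many members of the cholesterol and hypoxia lists were called between 0.24 and 1.2 mg/mL. Of 24 cholesterol genes 16 fell and 2 rose from 0.24 to 1.2 mg/mL (median -0.34), and of 16 hypoxia genes 13 fell and 1 rose (median -0.64), in a comparison where 28% of all genes fell. FDPS, which makes farnesyl units, fell by 0.59 ± 0.06 there (adjusted p = 4.08e-11), HMGCS1 by 0.54 ± 0.06 and HK2 by 1.24 ± 0.16 (adjusted p = 4.63e-07). All 25 DNA replication genes and all 22 mitosis genes fell in this step, as did 19 of 22 genes that answer amino acid shortage. Side by side against the blank, the medians at 0.048, 0.24 and 1.2 mg/mL were 0.098, 0.18 and -0.15 for cholesterol genes, 0.26, 0.34 and -0.030 for hypoxia genes, 0.19, 0.16 and 0.29 for immediate early genes and -0.050, -0.034 and -0.99 for DNA replication genes. These medians share the blank libraries.

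**Figure D4:**
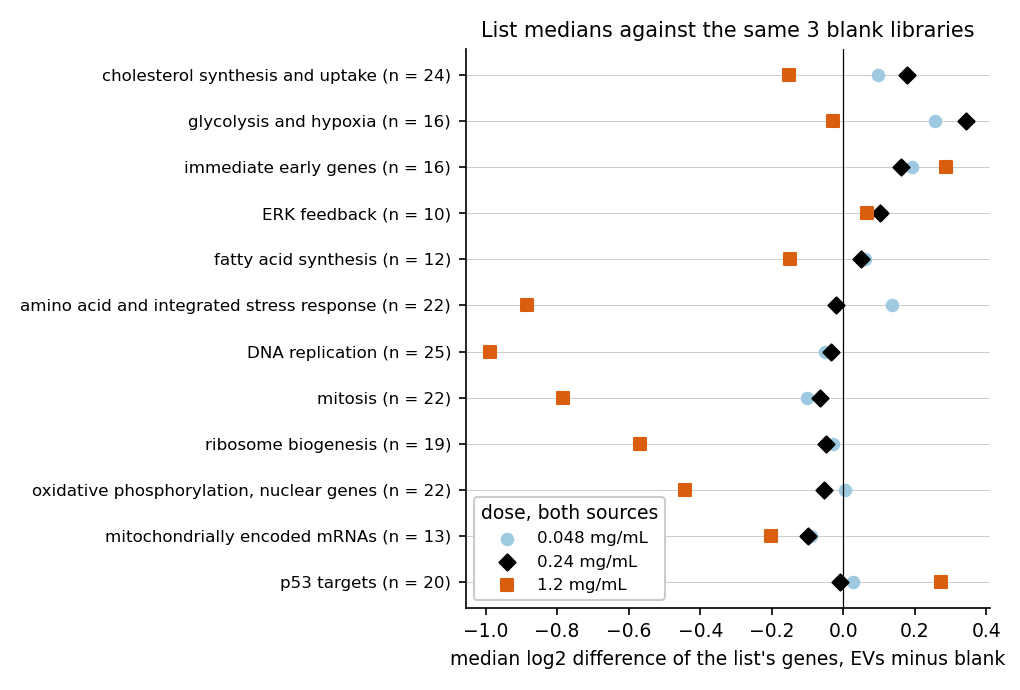
Median log2 difference from the blank (horizontal axis) of 12 gene lists (vertical axis, n tested genes) at 0.048, 0.24 and 1.2 mg/mL, both EV sources averaged; all 3 doses share the same blank libraries. At 0.24 mg/mL the medians lie between -0.099 and 0.34, while at 1.2 mg/mL the DNA replication list reaches -0.99.

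The libraries of a group differed among themselves. The first principal component of the 9 libraries held 39.2% of the variance and spread the blank from -16.9 over -8.66 to 12.1, with EV libraries between -8.51 and 11. The second held 12.5% and placed the blank at -0.574 to -11.7 and the EV libraries at -0.698 to 7.07. Blank replicate 2 and HCC- replicate 2 were the highest on the first component. The slope of level on GC content, in log2 units per 10 percentage points, was -0.192, 0.0513 and -0.137 in the blank and -0.127 to 0.0325 with EVs, and their part in the list medians was not tested beyond the value with trends removed. The mitochondrial share of counts was 7.21% to 7.73% in the blank and 6.42% to 7.39% with EVs, beside which the mitochondrial values above stand.

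**Figure D5:**
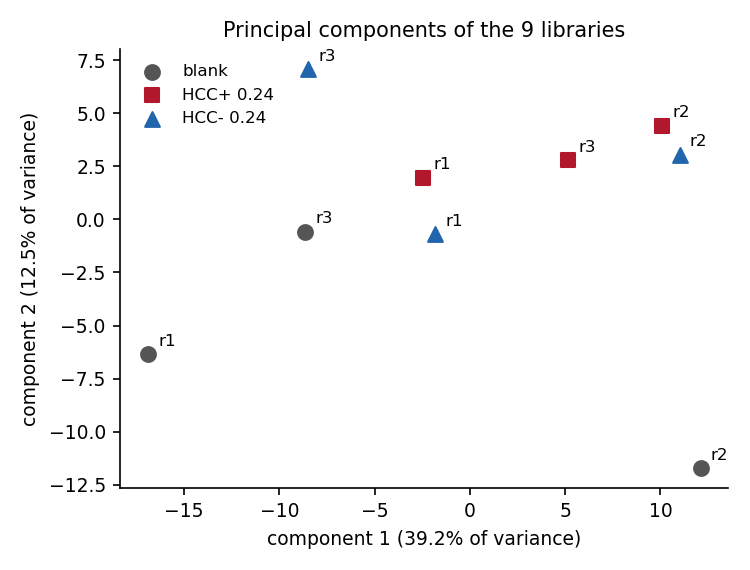
First and second principal component scores of the 9 libraries, from 12206 genes; symbols mark the groups and r1 to r3 the replicate numbers. The 3 blank libraries span component 1 from -16.9 to 12.1, and the 6 EV libraries lie between them on that axis.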

How the data were processed

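RNA of HCT-116 cells was sequenced in 21 libraries, 3 for each of 7 groups. Per the submitters' processing notes the authors used cutadapt 3.4, HISAT2 2.2.1 and featureCounts 2.0.1 with GRCh38. Which annotation was used, whether strand was read and how multiply mapped reads were handled is not given in the sources used here. Raw read counts per gene were deposited by the authors beside exon coordinates and gene length. Symbols were found for 41967 of 65065 identifiers, and 27406 genes had no count.

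A single edgeR model (version 4.0.16, R 4.3.3) with 7 group means was fitted to all 21 libraries (TMM, filterByExpr, robust quasi-likelihood F test, 2-sided, 14 residual degrees of freedom, common biological coefficient of variation 0.0885). In all, 6 comparisons were made, each adjusted over 19556 genes. Standard errors are the log2 difference over the root of F. The method was also run on simulated data, drawn for each gene and library separately from the fitted spread. Such data hold no trend shared by many genes of a library, so they cannot show how such trends affect the calls. No replicates agreed within sampling noise: chi-square per degree of freedom was 4.55 to 27. Library totals, 31.22 to 53.82 M in the 9 libraries, set the precision for genes with few counts.

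The members and gene lists were chosen with earlier results of these data known. The rule named up to 15 called genes a direction, filled up to 10 by smallest p among genes averaging 1 log2 CPM or more, the first 2 tested members and up to 4 called members of each list, and up to 5 genes a direction in the comparisons without the blank, 108 genes in all, of which the text gives part. Other members and both motifs were picked after values were seen. Alternatives were RLE factors, total counts, no filter, DESeq2 1.42.0, a replicate block, only the groups compared, the 6 EV libraries as 1 group, each library left out, and removal of trends with GC content and length (from GENCODE v29, available for 99.7% of the genes tested; trends were set on 11171). List medians under these were added after seeing the data. Figures used matplotlib 3.10.9 under Python 3.11.15. Some members of the lists are not reported here by name and enter only the lists' counts and medians.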

Additional observations from a re-analysis of the deposited data

How the results depend on the processing

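For EVs at 0.24 mg/mL against the blank, the count of called genes was 1 in the fit reported and 2 with scaling to the total count, 29 with no filter on low counts (27 higher, 2 lower), 7 with GC content and length trends removed (5 higher, 2 lower), 5 with DESeq2, 0 with only the groups compared and 0 with the 6 EV libraries as 1 group. Leaving out 1 library gave 0 to 9 calls, 0 without blank replicate 3, 9 without blank replicate 2, 7 without HCC+ replicate 1 and 3 without HCC- replicate 1. TFRC was called in 14 of 17 alternatives. Its log2 difference was 0.421 with only the groups compared, 0.428 with the 6 EV libraries as 1 group and 0.328 to 0.523 with a library left out, and adjusted p ran from 3.22e-10 to 0.361. The cause was not tested, here or below.

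HCC+ EVs against the blank gave 25 calls with no filter, 7 with trends removed, 2 with only the groups compared, 3 with DESeq2 and 1 to 21 with a library left out (7 without blank replicate 2 and 21 without HCC+ replicate 1). HCC- EVs gave 9 with no filter, 2 with trends removed and 0 to 1 with a library left out (1 without blank replicate 1), and TFRC was among the calls in each of these 3. Between the sources, removal of trends gave 1 call, TFRC, at 0.29 (adjusted p = 0.00175), where the smallest adjusted p of any gene ran from 0.00175 to 1 over the alternatives. Between 0.24 and 0.048 mg/mL there was 1 call with RLE factors, 98 with no filter, 8 with trends removed, 490 with only the groups compared, 56 with DESeq2 and 0 to 3 with a library left out. Between 1.2 and 0.24 mg/mL all 19 alternatives stayed within 9748 to 11434 calls. Total counts moved the median of all genes there to 0.206, and trend removal split the calls into 6945 higher and 4489 lower.

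The replicate number paired libraries in part. Of 9 same-number pairs, 6 had a correlation of deviations over 0.1, at most 0.531, and the others were 0.0201, -0.0114 and -0.08. Different-number pairs ran from -0.501 to 0.426. With the replicate number as a block, 2 genes were called against the blank, TFRC and GPRC5A (0.29, adjusted p = 0.0137), and 1 gene between 0.24 and 0.048 mg/mL.

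None of the 19 other genes named by p in either direction turned direction in the 17 alternatives. They passed the threshold in 24 of 323 refits. The cholesterol list had 23 or 24 of 24 members above 0 and the hypoxia list 16 of 16 in every alternative, while members at an unadjusted p under 0.05 ran from 9 to 20 and from 2 to 14.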

Other observations

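ANGPTL4, a secreted inhibitor of lipoprotein lipase that both PPAR and HIF factors induce, was picked after its values were seen. It was at 8.77, 16.4 and 11.4 CPM in the blank, 13, 40.1 and 37.9 CPM with HCC+ EVs and 21.6, 36.2 and 18.8 CPM with HCC- EVs at 0.24 mg/mL. HCC+ replicate 1 lay in the blank range. The difference was 1.18 ± 0.36 and did not pass by edgeR's test (adjusted p = 0.635). At 0.048 mg/mL it was at 15.2, 21.7 and 20.2 CPM with HCC+ EVs and at 34.6, 40.6 and 22.8 CPM with HCC- EVs, and at 1.2 mg/mL at 14.6 to 24.2 and 15.5 to 18.6 CPM.

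SLC6A6, the taurine transporter, was at 76.1, 76.5 and 68.8 CPM in the blank and at 77.9 to 95.7 CPM with EVs at 0.24 mg/mL (0.22 ± 0.08, adjusted p = 0.651 by edgeR), without overlap, as for 1.38% of all genes on the higher side, and it was higher at 1.2 than at 0.24 mg/mL by 0.90. The laminin chain LAMB3 was at 37.1, 48.6 and 37 CPM in the blank and at 46.1 to 57.1 CPM with EVs (0.31 ± 0.09), with overlap. The lysosomal sialidase NEU1 was at 30, 28.5 and 28.6 CPM and at 30.4 to 35.2 CPM, without overlap (0.16 ± 0.07). SLC6A6, LAMB3 and NEU1 were picked after their values were seen.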
